A study of Drosophila melanogaster with 11 samples.

Results

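The genes described here are 37 genes that neurons use to build synapses, fire action potentials and release transmitter, followed through 4 food treatments of adult female fly heads. They were taken from a list of synaptic, ion channel and pan-neuronal genes by matching the current or older gene symbol of each probe set in the array's annotation, out of 12548 genes named there. Of the 37 genes, 34 had at least 1 probe set, 61 in all. Syt1, Syx1A and comt matched no probe set and were not analysed here.

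All flies were w1118 females collected within a day of eclosion, and each array held RNA from 20 heads of 1 vial, pooled. Joint exposure flies were kept on nicotine at 0.1 mg/ml, alone during the first 10 days and together with 5 mM paraquat during the last 6 days (n = 3 arrays). Paraquat flies received plain food for 10 days and then 5 mM paraquat for 6 days (n = 2, replicates 2 and 3, because the submitters left out a degraded replicate). Nicotine flies received 0.1 mg/ml nicotine for all 16 days (n = 3), and control flies plain food for 16 days (n = 3). Paraquat is a herbicide that generates superoxide inside cells, and nicotine activates the acetylcholine receptors that carry most fast excitation in the insect brain. The series addresses these exposures as a fly model of Parkinson's disease.

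In a neuron, voltage-gated sodium and potassium channels shape the action potential, and calcium entering through channels at the active zone triggers vesicle fusion. Fusion is carried out by SNARE proteins on the vesicle and on the plasma membrane, which other proteins prime, clamp and recycle. The fly head holds brain, eye, fat body and muscle. A whole-head measurement cannot tell fewer neurons apart from less RNA per neuron.

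Values are log2 expression per probe set. A probe set was tested if it reached log2 4 on at least 2 of the 11 arrays, which 9104 of 18952 probe sets did. Among the members 39 probe sets of 28 genes were tested, and 38 of the 39 lay above log2 4 on all 11 arrays. The exception was slo, at log2 3.66 to 5.85. Probe sets differ in how they bind, so values are compared between arrays and not between genes.

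Several members stayed below the low-value limit. The potassium channel genes Shab, Shaw and eag, the vesicular glutamate and GABA transporter genes VGlut and VGAT, and the NMDA receptor gene Nmdar2 stayed below log2 4 on all arrays with all their 10 probe sets. VGAT came nearest, at log2 2.17 to 3.94, while both VGlut probe sets lay at 2.11 on all arrays. A further 12 probe sets of futsch, brp, Rim, cac, Sh, SK and dlg1 were also below log2 4, beside other probe sets of the same genes that were tested. Of the defining neuronal markers that could be measured, elav, fne, nSyb and Snap25 lay between log2 10.22 and 13.06 on all arrays. The active zone gene brp lay at log2 4.01 to 5.79 in its 2 tested probe sets. Levels in whole heads, with no other tissue beside them, cannot test whether the label of the list holds.

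Single arrays stood apart in the control probe sets that read the 3′ end and the middle of the actin, GAPDH and eIF-4a transcripts. The mean 3′ minus middle difference was 6.06 log2 on joint exposure replicate 1 and 3.29 on control replicate 3, and 4.01 to 4.85 on the other arrays. A larger difference means less signal away from the 3′ end, where the amplification starts. On joint exposure replicate 1 the correlation with the other arrays was also lowest (mean 0.914, against 0.943 for control replicate 3 and 0.954 to 0.965 elsewhere). The 3′ minus 5′ difference gave another order: it was 10.3 on joint exposure replicates 1 and 3, 10.1 on nicotine replicate 3 and 5.87 on control replicate 3, against 8.34 to 9.43 on the other arrays.

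**Figure D1:**
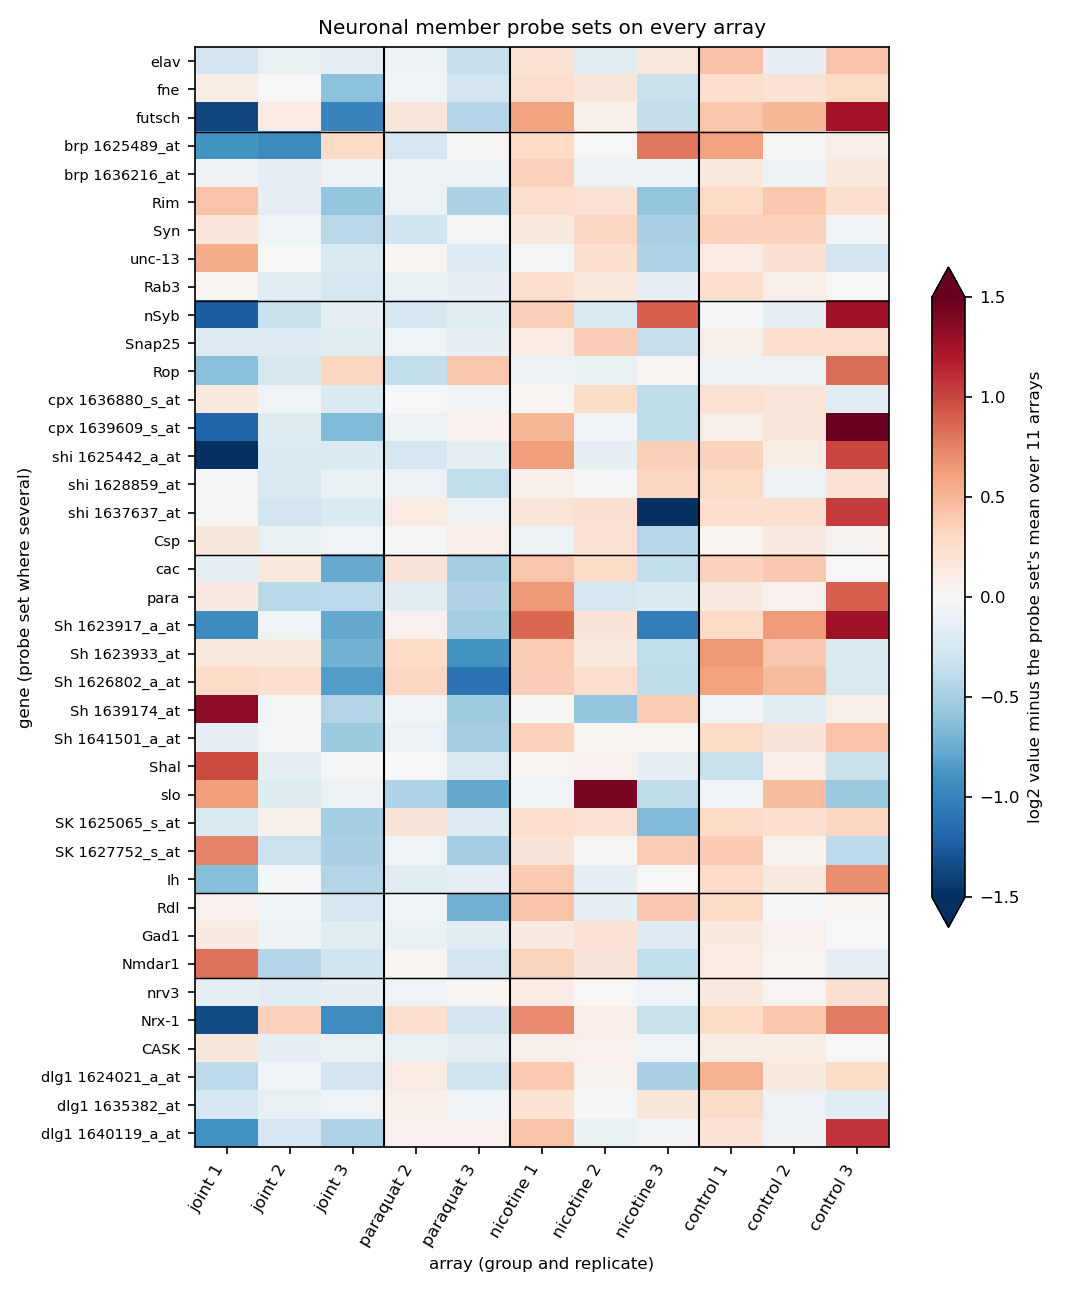
Heat map of the 39 tested member probe sets (rows, grouped by role) on the 11 arrays (columns, joint exposure, paraquat, nicotine and control). Colour is the log2 value minus the probe set's mean over the 11 arrays, with the scale ending at -1.5 and 1.5. Most rows are bluer in the 5 paraquat columns than in the 6 others, and the darkest cells lie on joint exposure replicate 1, nicotine replicate 3 and control replicate 3.

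The first question was whether paraquat changed these genes, averaged over flies with and without nicotine. The member probe sets lay mostly on the low side with paraquat, by small amounts. Of 39 member probe sets 35 had a difference below 0, against 51.0% of all tested probe sets, and the median difference was -0.31 log2 (-0.01 over all tested). Some genes count more than once here. With 1 probe set per gene, 25 of 28 were below 0 (48.3% of all tested in that fit), with a median of -0.28. Members ranged from -0.85 for the microtubule-binding protein gene futsch to 0.18 for the potassium channel gene Shal. By limma 0 of 39 were called at an adjusted p below 0.05, against 3.69% of all tested probe sets (0.758% called lower). Taken separately, 0 of 39 were called for joint exposure against nicotine (0.45% of all tested) and 0 for paraquat against control (0.341%). At an unadjusted p below 0.05 there were 9 (23.1%), against 17.6% of all tested, with 2 for joint exposure against nicotine (11.5% of all tested) and 1 for paraquat against control (10.5% of all tested). Single arrays moved this count: leaving out paraquat replicate 3 gave 2 (10.6% of all tested), nicotine replicate 1 gave 3 (13.9%) and control replicate 3 also gave 3 (16.6%). Leaving out both control replicate 3 and joint exposure replicate 1 gave 4 (20.3%). The count rose to 10 without control replicate 2 (15.7%) and to 13 without nicotine replicate 3 (18.3%). With each array centred on its median it was 17 (19.1%). The 95% interval of the difference lay within 1 log2 of 0 for 27 of the 39 probe sets, so for these a doubling or halving lies outside it, and it reached -1 or lower for the other 12.

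The count of calls depended on how arrays were weighted. With limma's array weights 9 of 39 members were called, all lower with paraquat. The least weight went to joint exposure replicate 1 (0.231) and control replicate 3 (0.280). The most went to nicotine replicate 1 (5.82) and control replicate 2 (5.78), against at most 1.29 on any other array. The nicotine and control means of that fit thus rest mostly on these 2 arrays. In that fit 17.9% of all tested probe sets were called, and 6.32% were called lower. The 9 were futsch, fne, Ih, cac, Rim, Rab3, Syn and the Sh probe sets 1623917_a_at and 1641501_a_at. Without joint exposure replicate 2, futsch alone was called (-1.07, adjusted p = 0.0463), when 6.44% of all tested probe sets were called and 2.23% were called lower.

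The same direction appeared in both paraquat comparisons, which share no array. They may still share effects of the replicate number. Deviations of same-numbered arrays from their group means correlated at -0.07 to 0.50 over 15 pairs. In joint exposure against nicotine 34 of 39 probe sets had a difference below 0 (median -0.22), against 52.0% of all tested. In paraquat against control 37 of 39 did (median -0.37), against 48.3%. Below 0 in both were 33 of the 39, against 33.5% of all tested probe sets. The count for joint exposure against nicotine depended on single arrays. It was 25 of 39 without joint exposure replicate 3 (53.7% of all tested) and 29 without nicotine replicate 1 (50.3%). Without nicotine replicate 2 it was also 29 (49.1%), and without nicotine replicate 3 it was 37 (56.1%).

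Array values without any model showed the same in the flies without nicotine. For 22 of 39 probe sets (56.4%) both paraquat arrays lay below all 3 control arrays, against 12% of all tested, and for 0 of 39 both lay above, against 19.8%. In the flies on nicotine, where both groups have 3 arrays, 6 of 39 (15.4%) had all 3 joint exposure arrays below all 3 nicotine arrays, against 6.83% of all tested, and 0 lay above, against 8.22%.

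Of the pan-neuronal genes, elav encodes the RNA-binding protein that marks nearly all fly neurons. It was at 11.21, 11.38 and 11.36 with joint exposure and 11.42 and 11.14 with paraquat, against 11.69, 11.33 and 11.65 with nicotine and 11.93, 11.37 and 11.91 in control. The 5 arrays with paraquat lay low, but nicotine replicate 2 and control replicate 2 lay among them. The paraquat difference was -0.35 ± 0.15 log2 (standard error, 1.27-fold lower, adjusted p = 0.255, 95% interval -0.68 to -0.02). Its relative fne, also an RNA-binding protein of neurons, was at 11.18, 11.05 and 10.45 with joint exposure and 11.02 and 10.77 with paraquat. With nicotine it was at 11.30, 11.24 and 10.73, and in control at 11.31, 11.27 and 11.35. Only nicotine replicate 3 brought the arrays without paraquat into the paraquat range, and the difference was -0.31 ± 0.17 (adjusted p = 0.406).

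The microtubule gene futsch had the largest paraquat difference among the members. Its values were 10.55, 12.04 and 10.93 with joint exposure and 12.09 and 11.47 with paraquat, against 12.52, 11.99 and 11.55 with nicotine and 12.33, 12.41 and 13.17 in control. Control replicate 3 was the highest array and joint exposure replicate 1 the lowest, while nicotine overlapped both paraquat groups. The difference was -0.85 ± 0.31 log2 (1.80-fold lower, adjusted p = 0.189). Leaving out those 2 arrays gave -0.56 (adjusted p = 0.333), and -0.48 came from a fit with the 3′ minus middle value as covariate (adjusted p = 0.289).

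At the active zone, brp encodes the scaffold that clusters calcium channels, Rim a scaffold that binds vesicles through the GTPase Rab3, unc-13 the vesicle priming factor and Syn the synapsin that tethers vesicles. Of their 6 probe sets 5 had a difference below 0, with a median of -0.23 and a range from -0.62 to 0.05. For brp, probe set 1625489_at was at 4.10, 4.04 and 5.28 with joint exposure and 4.75 and 5.01 with paraquat, against 5.30, 4.99 and 5.79 with nicotine and 5.59, 5.01 and 5.08 in control. These values lie near the low-value limit, and joint exposure replicates 1 and 2 were the lowest. The difference was -0.62 ± 0.26 (adjusted p = 0.260). Its other probe set, 1636216_at, stayed between 4.01 and 4.49 on all arrays (-0.17 ± 0.12, adjusted p = 0.532). Rab3 lay at -0.22 ± 0.12 (adjusted p = 0.390), Syn at -0.23 ± 0.19 (adjusted p = 0.591) and unc-13 at 0.05 ± 0.20 (adjusted p = 0.942).

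In the release machinery, 8 of 9 probe sets had a difference below 0 with paraquat (median -0.26). The vesicle SNARE gene nSyb was at 10.22, 11.11 and 11.31 with joint exposure and 11.19 and 11.29 with paraquat, against 11.81, 11.22 and 12.34 with nicotine and 11.42, 11.32 and 12.71 in control. Control replicate 3 and nicotine replicate 3 were high and joint exposure replicate 1 low, while the other 8 arrays lay between 11.11 and 11.81. The difference of -0.74 ± 0.33 log2 (1.67-fold lower, adjusted p = 0.281) was -0.35 (adjusted p = 0.409) without joint exposure replicate 1 and control replicate 3. Snap25, whose product is the plasma membrane SNARE, was at 12.51, 12.51 and 12.55 with joint exposure and 12.63 and 12.57 with paraquat. It was at 12.82, 13.06 and 12.36 with nicotine and 12.79, 12.94 and 12.96 in control. All arrays with paraquat lay below all arrays without it except nicotine replicate 3, and the difference was -0.26 ± 0.14 (adjusted p = 0.381).

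The dynamin gene shi, needed to retrieve vesicles after fusion, was read by 3 tested probe sets. Probe set 1625442_a_at was at 8.36, 9.64 and 9.64 with joint exposure and 9.58 and 9.72 with paraquat, against 10.48, 9.72 and 10.21 with nicotine and 10.19, 9.95 and 10.85 in control. The arrays with and without paraquat overlapped only in paraquat replicate 3 (9.719), which lay just above nicotine replicate 2 (9.715). Its difference was -0.80 ± 0.28 (1.74-fold lower, adjusted p = 0.172), and -0.46 (adjusted p = 0.198) without the extreme arrays. Probe set 1628859_at was at 10.80, 10.59 and 10.72 with joint exposure and 10.72 and 10.45 with paraquat, against 10.89, 10.80 and 11.14 with nicotine and 11.12, 10.73 and 11.03 in control. This smaller difference of -0.31 ± 0.13 (adjusted p = 0.253) was as large without those 2 arrays (-0.31, adjusted p = 0.264). The remaining probe set, 1637637_at, lay at -0.14 ± 0.33 (adjusted p = 0.895).

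Complexin, the clamp on SNARE complexes encoded by cpx, gave unequal answers in its 2 probe sets. Probe set 1639609_s_at was at 10.83, 11.85 and 11.36 with joint exposure and 11.93 and 12.09 with paraquat, against 12.53, 11.98 and 11.64 with nicotine and 12.12, 12.21 and 13.75 in control. Control replicate 3 stood more than 1 log2 above every other array. The difference was -0.69 ± 0.33 (adjusted p = 0.331), and -0.30 (adjusted p = 0.444) without control replicate 3 and joint exposure replicate 1. Probe set 1636880_s_at stayed between 13.43 and 14.09 and lay at -0.06 ± 0.15 (adjusted p = 0.908). The syntaxin-binding protein gene Rop (-0.17 ± 0.25, adjusted p = 0.802, but 0.098 without those arrays) and the vesicle chaperone gene Csp (0.03 ± 0.14, adjusted p = 0.949) completed the group.

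**Figure D2:**
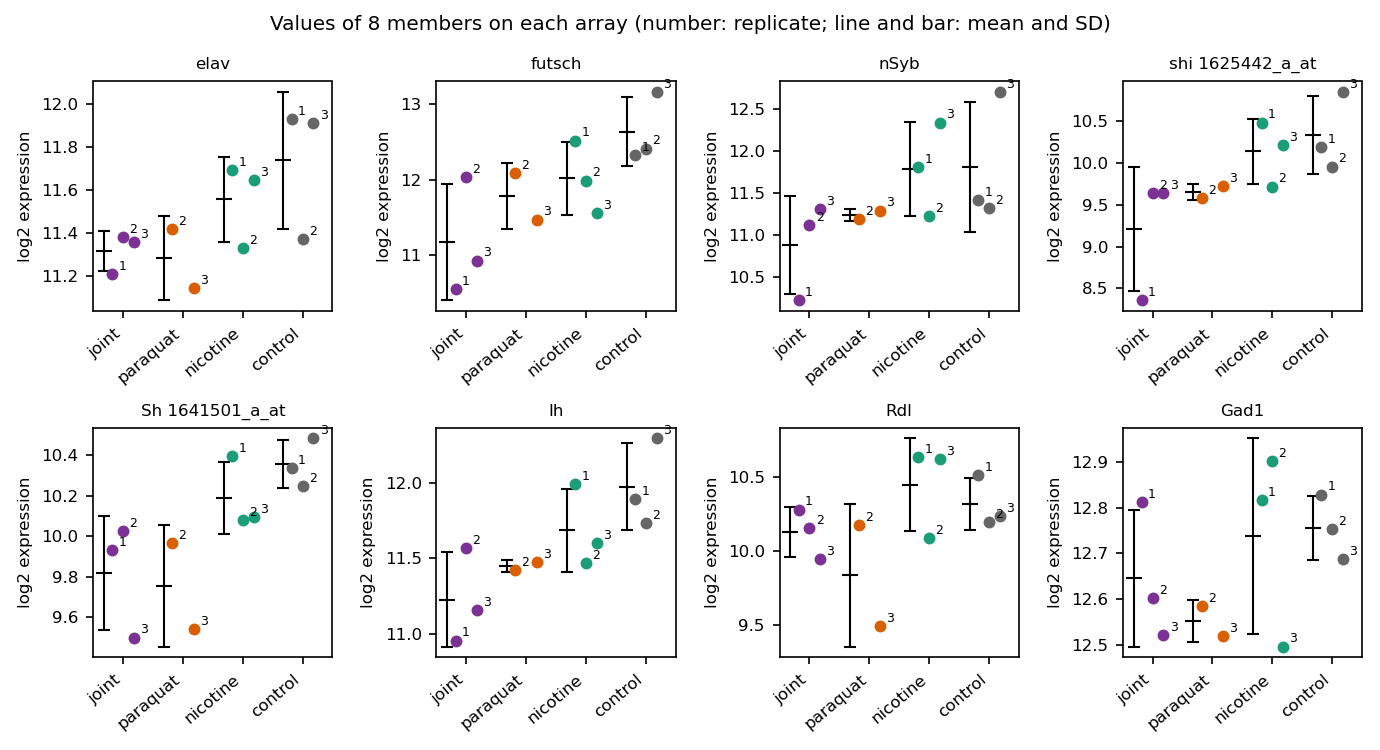
Log2 expression of 8 member probe sets on each array, by group (joint exposure, paraquat, nicotine and control), with replicate numbers beside the points and the mean and SD beside each group (n = 3, 2, 3 and 3). The shi probe set is 1625442_a_at and the Sh probe set 1641501_a_at. For Sh all 5 arrays with paraquat lie below all 6 without, while for elav, futsch, nSyb, shi, Ih, Rdl and Gad1 the ranges overlap.

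Channel genes lay mostly below 0 with paraquat, 10 of 12 probe sets, with a median of -0.39. Sh, which encodes the Shaker potassium channel that repolarizes the membrane, had 5 tested probe sets. Probe set 1641501_a_at was at 9.93, 10.03 and 9.50 with joint exposure and 9.96 and 9.54 with paraquat, against 10.39, 10.08 and 10.09 with nicotine and 10.34, 10.25 and 10.48 in control. Every array with paraquat lay below every array without it, which held for 1 of the 39 member probe sets and for 1.99% of all tested, while 0 members lay wholly above, against 4.17%. The difference was -0.49 ± 0.15 log2 (1.40-fold lower, 95% interval -0.82 to -0.15, adjusted p = 0.115), the smallest p among the members. Without joint exposure replicate 1 and control replicate 3 it was -0.48 (adjusted p = 0.165).

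The other Sh probe sets did not all follow. Probe set 1623917_a_at was at 8.48, 9.36 and 8.66 with joint exposure and 9.49 and 8.92 with paraquat, against 10.29, 9.62 and 8.39 with nicotine and 9.73, 10.07 and 10.70 in control. Nicotine replicate 3 was the lowest array of all, and the difference was -0.78 ± 0.35 (adjusted p = 0.294). Probe sets 1623933_at and 1626802_a_at lay at -0.39 and -0.43, each lowest on paraquat replicate 3 and next lowest on joint exposure replicate 3. Probe set 1639174_at, at log2 4.23 to 6.15, lay at 0.05. The Sh probe sets thus spanned 0.83 log2 in this comparison. Those of shi spanned 0.66 and those of cpx 0.64, while those of brp (0.45), dlg1 (0.36) and SK (0.04) lay closer together.

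Ih encodes the channel opened by hyperpolarization. It was at 10.96, 11.57 and 11.16 with joint exposure and 11.42 and 11.48 with paraquat, against 11.99, 11.47 and 11.60 with nicotine and 11.89, 11.74 and 12.29 in control. Nicotine replicate 2 lay below joint exposure replicate 2 and paraquat replicate 3, the other arrays did not cross, and the difference was -0.49 ± 0.17 (1.41-fold lower, adjusted p = 0.161), or -0.34 (adjusted p = 0.266) without joint exposure replicate 1 and control replicate 3. The sodium channel gene para was at 7.18, 6.63 and 6.66 with joint exposure and 6.89 and 6.60 with paraquat, against 7.71, 6.79 and 6.84 with nicotine and 7.19, 7.12 and 7.95 in control (-0.48 ± 0.24, adjusted p = 0.337). For para both paraquat arrays lay below all controls, and joint exposure overlapped nicotine. The presynaptic calcium channel gene cac was at 12.22, 12.51 and 11.61 with joint exposure and 12.55 and 11.85 with paraquat, against 12.77, 12.64 and 11.99 with nicotine and 12.70, 12.76 and 12.35 in control. Replicate 3 was the lowest of each group for cac, and the difference was -0.38 ± 0.23 (adjusted p = 0.442).

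The calcium-activated potassium channel genes slo and SK lay below 0 as well, slo at -0.39 ± 0.35 and the SK probe sets at -0.22 and -0.26. The A-type potassium channel gene Shal was the highest member, at 0.18 ± 0.21 (adjusted p = 0.738), with its highest value of 6.21 on joint exposure replicate 1. Of the 4 members above 0, Shal stayed there when each array was centred on its median, while unc-13 (-0.02), Csp (-0.04) and 1639174_at of Sh (-0.01) did not. Without joint exposure replicate 1 and control replicate 3, Shal was at -0.037.

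Among transmitter genes, Rdl encodes the GABA receptor that is the target of several insecticides. It was at 10.28, 10.15 and 9.95 with joint exposure and 10.18 and 9.49 with paraquat, against 10.63, 10.09 and 10.62 with nicotine and 10.51, 10.20 and 10.24 in control. Paraquat replicate 3 was lowest, and joint exposure overlapped nicotine and control. The difference was -0.40 ± 0.17 (adjusted p = 0.267). The GABA-synthesizing enzyme gene Gad1 was at 12.81, 12.60 and 12.52 with joint exposure and 12.58 and 12.52 with paraquat, against 12.82, 12.90 and 12.50 with nicotine and 12.83, 12.75 and 12.69 in control. Its difference was narrow and small, at -0.15 ± 0.12 (adjusted p = 0.580, 95% interval -0.42 to 0.12). The NMDA receptor subunit gene Nmdar1 lay at -0.07 ± 0.25 (adjusted p = 0.929).

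All 6 probe sets of scaffold and membrane genes had a difference below 0, with a median of -0.24. The scaffold gene dlg1, which organizes the postsynaptic membrane, was read by 3 probe sets. Probe set 1640119_a_at was at 10.31, 10.97 and 10.75 with joint exposure and 11.28 and 11.28 with paraquat, against 11.64, 11.12 and 11.17 with nicotine and 11.43, 11.14 and 12.30 in control. All joint exposure arrays lay below all nicotine arrays there, while both paraquat arrays lay within the control range. Its difference was -0.49 ± 0.23 (adjusted p = 0.317), and -0.23 (adjusted p = 0.434) without joint exposure replicate 1 and control replicate 3. The synaptic adhesion gene Nrx-1 lay at -0.66 ± 0.32 (adjusted p = 0.334), and at -0.41 (adjusted p = 0.501) without the same arrays. The scaffold kinase gene CASK (-0.12 ± 0.11, adjusted p = 0.627) and nrv3, a sodium pump subunit gene of neurons (-0.15 ± 0.10, adjusted p = 0.482), had the narrowest intervals of the group.

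**Figure D3:**
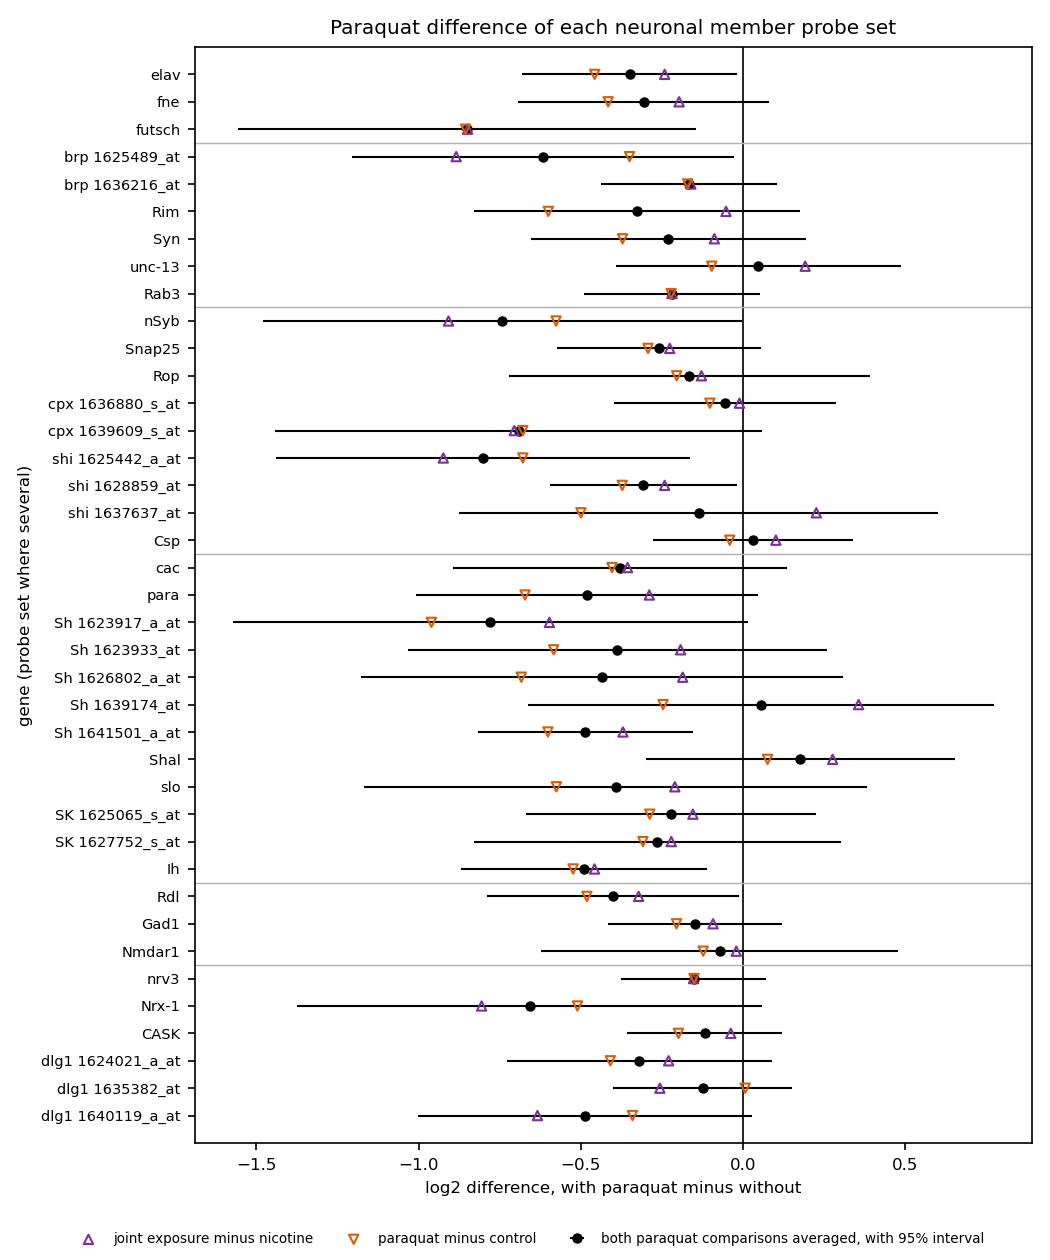
Log2 difference with paraquat minus without for each member probe set, grouped by role. Filled points with 95% intervals give both paraquat comparisons averaged, and open triangles give joint exposure minus nicotine and paraquat minus control. Of the filled points 35 of 39 lie below 0 and 27 intervals lie within 1 log2 of 0, and 0 probe sets passed the adjusted test.

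Several of the larger differences were smaller without the 2 arrays that stood apart, as given above, while some others were larger. For 1627752_s_at of SK the difference went from -0.26 to -0.56 (adjusted p = 0.103 by limma). Without the 2 arrays slo was at -0.65, 1626802_a_at of Sh at -0.66 and Nmdar1 at -0.31, each further below 0 than with all arrays. Of the 39 member probe sets 15 were highest of 11 arrays on control replicate 3 (20.9% of all tested were), and 9 were lowest on joint exposure replicate 1 (25.9% of all tested were). Both held for 8 probe sets (20.5%), against 11.7% of all tested, namely those of futsch, nSyb, Rop, Ih and Nrx-1 with 1625442_a_at of shi, 1639609_s_at of cpx and 1640119_a_at of dlg1. Nicotine replicate 3 was lowest for 11 (17.1% of all tested) and paraquat replicate 3 for 9 (7.24%). The median over the members, -0.31 with all arrays, was -0.31 log2 without both, with 38 of 39 below 0, and -0.29 with the 3′ minus middle covariate, again with 38 of 39 below 0. Without these 2 arrays, 4 of 39 probe sets had all 4 remaining paraquat arrays below all 5 others (3.72% of all tested did), namely 1628859_at of shi, 1641501_a_at of Sh, 1627752_s_at of SK and that of CASK.

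Relative to each probe set's mean over 11 arrays, the median member deviation was -0.02, -0.12 and -0.27 log2 on the joint exposure arrays and -0.06 and -0.19 on the paraquat arrays. It was 0.26, 0.06 and -0.21 on the nicotine arrays and 0.25, 0.13 and 0.21 on the control arrays. All 5 arrays with paraquat lay below 0, and of the 6 without it only nicotine replicate 3 did. The same medians over all tested probe sets lay between -0.04 and 0.07. Joint exposure replicate 3 and nicotine replicate 3, the lowest member medians, were also among the 3 arrays with the highest 3′ minus 5′ difference. The other of these 3, joint exposure replicate 1 (10.3), had a member median of -0.02. Paraquat replicate 3, at -0.19, had a 3′ minus 5′ difference of 8.98, inside the range of the remaining arrays. With that difference as covariate the paraquat median was -0.28, with 35 of 39 below 0.

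**Figure D4:**
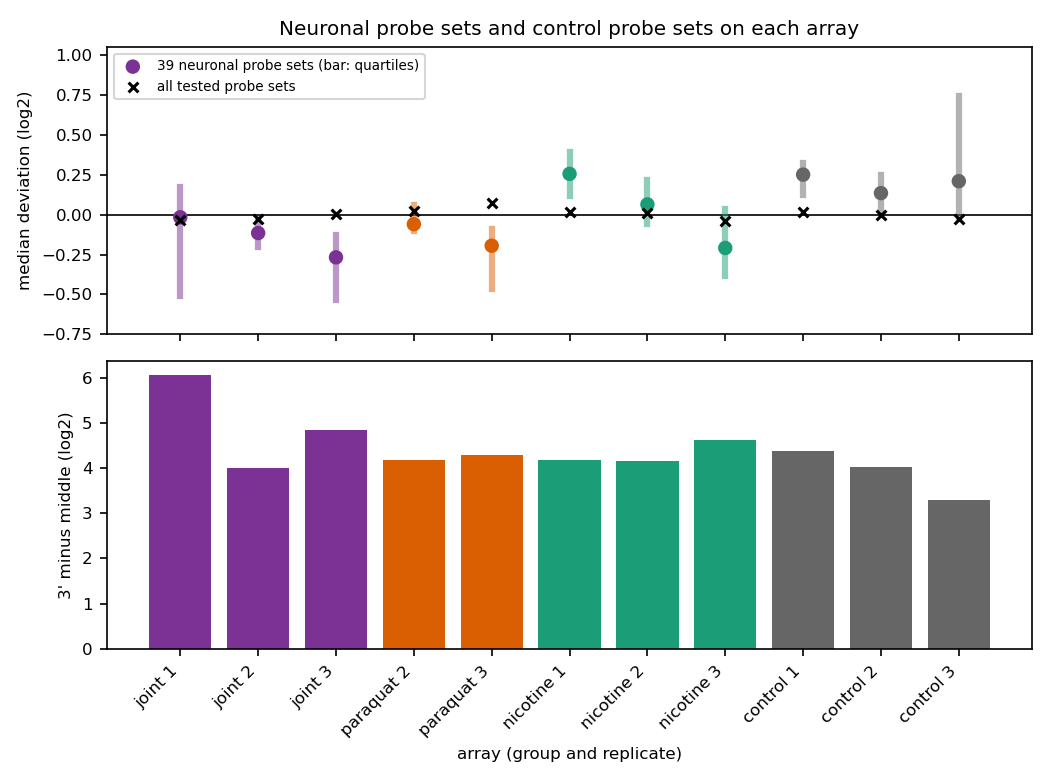
Upper panel, median deviation of the 39 member probe sets from their own means over 11 arrays (points, with bars for the quartiles) and the same median over all 9104 tested probe sets (crosses), for each array. Lower panel, mean 3′ minus middle difference of the actin, GAPDH and eIF-4a control probe sets in log2 units. The member medians are below 0 on all 5 paraquat arrays and on nicotine replicate 3, and the tallest bar is joint exposure replicate 1 (6.06).

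Nicotine was the second question. Averaged over flies with and without paraquat, the member median was -0.08 log2 (-0.04 over all tested), with 28 of 39 probe sets below 0, against 57.3% of all tested. By limma 0 of 39 members were called (0% of all tested), and 0 had an unadjusted p below 0.05, against 3.69% of all tested. The smallest p belonged to 1640119_a_at of dlg1 (-0.46 ± 0.23), 1639609_s_at of cpx (-0.65 ± 0.33) and futsch (-0.61 ± 0.31), each with an adjusted p of 0.833 and each highest on control replicate 3. Without joint exposure replicate 1 and control replicate 3 the member median was -0.10, and 0 of 39 were called.

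The next in order were 1637637_at of shi, slo and 1623917_a_at of Sh. The shi probe set was at 9.12, 8.83 and 8.89 with joint exposure and 9.28, 9.33 and 7.56 with nicotine, against 9.23 and 9.01 with paraquat and 9.35, 9.35 and 10.16 in control (-0.53 ± 0.33, adjusted p = 0.833). Here 1 nicotine array lay far below the other 10. For slo, which encodes the large-conductance calcium-activated potassium channel, the values were 5.06, 4.25 and 4.34 with joint exposure and 4.38, 5.85 and 4.05 with nicotine, against 3.97 and 3.66 with paraquat and 4.39, 4.90 and 3.88 in control. All joint exposure arrays lay above both paraquat arrays, the only member for which they did (5.01% of all tested did; 5 of 39 lay wholly below, against 13.2%), at levels close to the low-value limit. The nicotine difference of slo was 0.55 ± 0.35 (adjusted p = 0.833).

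Taken separately, nicotine against control had a member median of -0.16, with 32 of 39 below 0 (52.4% of all tested). This turned with array weights, to a median of 0.059 with 16 of 39 below 0, and without nicotine replicate 3 it was -0.05 with 24 of 39 below 0. At an unadjusted p below 0.05 there were 0 of 39 there (1.97% of all tested) and 0 in joint exposure against paraquat (3.02%). All 3 nicotine arrays lay below all 3 controls for 1 of 39, the shi probe set 1637637_at (2.38% of all tested), and above for 0 (3.45%). Joint exposure against paraquat had a median of -0.01, with 22 of 39 below 0 (58.6% of all tested), and centring each array on its median turned this median to 0.08. Below 0 in both nicotine comparisons were 20 of 39, against 36.1% of all tested. For the GABA genes Rdl and Gad1 and for Nmdar1 the averaged nicotine difference lay above 0, at 0.21, 0.04 and 0.10, with adjusted p from 0.833 to 0.944.

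Joint exposure against control combined both exposures and shares its arrays with the comparisons above. The member median was -0.40 log2 (-0.01 over all tested), and 34 of 39 probe sets lay below 0, against 51.3% of all tested. By limma 0 of 39 were called (0.33% of all tested). Without joint exposure replicate 2, Nrx-1 (-1.64, adjusted p = 0.0353) and futsch (-1.90, adjusted p = 0.0304) were called, against 4.18% of all tested. In the fit on all arrays 9 had an unadjusted p below 0.05 (23.1%), against 16.5% of all tested. There were 4 without control replicate 3 (10.2% of all tested) and 1 without control replicate 3 and joint exposure replicate 1 (9.86%). With the 3′ minus middle (6.49%) or the 3′ minus 5′ value (5.99%) as covariate there was also 1. Other settings gave more, with 12 without nicotine replicate 3 (17.2%) and 13 with each array centred on its median (17.8%). With the replicate number as a block there were 14 (19.7%). For 14 of 39 (35.9%) all 3 joint exposure arrays lay below all 3 control arrays, against 10.5% of all tested, and for 0 they lay above, against 9.18%. The most negative were futsch (-1.47 ± 0.42, 2.76-fold lower, adjusted p = 0.173), 1639609_s_at of cpx (-1.35 ± 0.44, adjusted p = 0.205) and 1623917_a_at of Sh (-1.33 ± 0.47, adjusted p = 0.223). Nrx-1 (-1.14 ± 0.43, adjusted p = 0.238) and 1625442_a_at of shi (-1.12 ± 0.38, adjusted p = 0.210) followed. These are the probe sets that were high on control replicate 3, and all but the Sh probe set were lowest on joint exposure replicate 1. Without both arrays futsch was at -0.89, cpx at -0.56, Sh at -0.89, Nrx-1 at -0.65 and shi at -0.43, with adjusted p from 0.548 to 0.636, and the member median was -0.43 with 37 of 39 below 0.

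Whether nicotine altered the paraquat difference was tested as an interaction. By limma 0 of 39 members were called (0% of all tested), and 0 had an unadjusted p below 0.05, against 1.23% of all tested. The interaction lay below 0 for 8 of 39, against 55.8% of all tested. It lay above 0 for all 12 channel probe sets, which are of 7 genes with 5 of Sh. The same held for all 3 transmitter and all 3 pan-neuronal probe sets. The member median was 0.13 (-0.05 over all tested), and -0.10 with array weights, where 25 of 39 lay below 0. Without nicotine replicate 3 it was -0.0087, with 20 of 39 below 0. Without control replicate 3 and joint exposure replicate 1 it was 0.05, with 15 of 39 below 0. Among the channel probe sets para (-0.06), Shal (-0.08) and 1627752_s_at of SK (-0.09) were then below 0. In the fit on all arrays the smallest p was that of Rim (0.55 ± 0.45, unadjusted p = 0.251, adjusted p = 0.9997). Rim was at 11.43, 10.86 and 10.41 with joint exposure and 11.25, 11.20 and 10.41 with nicotine, against 10.91 and 10.51 with paraquat and 11.29, 11.39 and 11.25 in control. Both paraquat arrays lay below all controls, while joint exposure and nicotine overlapped. Next came 1637637_at of shi (0.73 ± 0.66), which turned to -0.039 with array weights, and 1635382_at of dlg1 (-0.26 ± 0.25). The dlg1 values were 13.28, 13.42 and 13.47 with joint exposure and 13.73, 13.51 and 13.70 with nicotine, against 13.61 and 13.49 with paraquat and 13.82, 13.44 and 13.38 in control. The next, 1625489_at of brp, had -0.53 ± 0.53, and the median standard error over the members was 0.42 log2.

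Other neuronal genes, taken from a separate list of 50 channel, release, adhesion and receptor genes, lay on the same side with paraquat. Of these, 31 genes with 37 probe sets were tested. Of the 37, 35 had a paraquat difference below 0 (51.0% of all tested), and the median was -0.19. By limma 0 were called (3.69% of all tested), and 6 of 37 had an unadjusted p below 0.05 (17.6% of all tested). The smallest p belonged to the sodium channel relative NaCP60E (-0.45 ± 0.13, adjusted p = 0.0970), the dense-core vesicle priming gene Cadps (-0.44 ± 0.15, adjusted p = 0.163) and the glutamate-gated chloride channel gene GluClalpha (-0.37 ± 0.14, adjusted p = 0.189). For nicotine 23 of the 37 lay below 0 (57.3% of all tested), with a median of -0.02.

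Markers of other head cells were measured beside the neuronal genes, and their part in the neuronal values was not tested. Tested markers covered 9 of 10 listed glial genes, 5 of 8 photoreceptor, 7 of 10 muscle, 6 of 8 head fat body, 7 of 7 haemocyte and 6 of 6 digestive tract genes, without the photoreceptor genes ninaE and norpA, which matched no probe set. The paraquat median was -0.02 for 9 glial probe sets (5 below 0), -0.08 for 5 photoreceptor probe sets (3 below 0), -0.09 for 8 muscle probe sets (6 below 0) and 0.01 for 7 haemocyte probe sets (3 below 0). Head fat body markers lay lower, with a median of -0.58 and 6 of 6 below 0, including the storage protein gene Lsp2 at -1.36 ± 0.35 (adjusted p = 0.0719). Digestive tract markers lay higher in this average, with a median of 1.86 and 5 of 6 above 0, but the 2 paraquat comparisons differed. The median was 3.81 for joint exposure against nicotine, with 5 of 6 above 0. For paraquat against control it was -0.20, with 4 of 6 below 0. By limma 0 of these markers were called (3.69% of all tested). At an unadjusted p below 0.05 (17.6% of all tested) there were 4 of 6 fat body, 2 of 9 glial and 2 of 6 digestive tract probe sets, and 0 of the other lists. As log2 of the summed linear level, 6 neuronal marker probe sets, all of them members described above, reached 13.52 to 13.65 with joint exposure and 13.63 to 13.72 with paraquat, against 13.91 to 14.03 with nicotine and 13.93 to 14.37 in control. Such a sum is weighted towards the highest probe set, here Snap25 (12.36 to 13.06), while those of brp (4.01 to 5.79) add little. On control replicate 3, nSyb was also high, at 12.71. Taken singly, each of these probe sets overlapped between arrays with and without paraquat. The 37 probe sets of the separate neuronal list overlapped, at 16.73 to 17.01 with joint exposure and 16.80 to 16.87 with paraquat, against 16.77 to 17.06 with nicotine and 16.85 to 17.06 in control. Glial markers overlapped, at 14.50 to 14.93 with joint exposure and 14.68 to 14.96 with paraquat, against 14.63 to 14.99 with nicotine and 14.71 to 14.94 in control. The digestive tract sum was 13.09 to 16.23 with joint exposure and 12.38 to 12.39 with paraquat, against 11.59 to 12.94 with nicotine and 12.02 to 13.08 in control.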

How the data were processed

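The file holds log2 expression values, 1 column per array, which the authors made with GCRMA, per the submitters' processing notes; no version or settings were found in the sources used here. No rescaling was done. Control probe sets (183) were left out, as was any probe set below log2 4 on all but 1 array or on all arrays. The 9104 others were fitted with limma 3.58.1 in R 4.3.3, with 1 mean per group over 11 arrays (7 residual and 2.48 prior degrees of freedom). P-values are two-sided and Benjamini-Hochberg adjusted over all 9104 within a contrast, with calls below 0.05. Symbols came from the platform annotation, updated by gene identifier through RefSeq's Release 6 table. Sequences were not used here. The fit was tested on simulated data.

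The members, lists and naming rule were chosen with earlier results of these data known. The rule gives array values for elav, fne, nSyb, brp, futsch, para, cac, Rdl and Gad1 and for the 12, 6 and 4 member probe sets with the smallest p for paraquat, nicotine and the interaction; other members named were chosen after their values were seen. Leaving out joint exposure replicate 1 and control replicate 3 together was an alternative chosen after seeing the data. The labels call the arrays biological replicates, and their number limits the precision.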

Additional observations from a re-analysis of the deposited data

How the results depend on the processing

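The naming rule gave 552 recomputed differences of single members. Of these, 544 kept their direction and side of the threshold, 7 passed the threshold and 1 reversed (1637637_at of shi, interaction, -0.039 with array weights). The 7 were all for paraquat averaged over nicotine. The calls for joint exposure against control lay outside the 552. With array weights 9 members were called for paraquat averaged over nicotine, including Rim, Rab3 and Syn, which also lay outside the 552. Member medians there were -0.48 for joint exposure against nicotine, 0.059 for nicotine against control and -0.10 for the interaction. Nicotine replicate 1 weighed 5.82 (0.97 and 0.36 on the other nicotine arrays), and control replicate 2 weighed 5.78 (1.03 and 0.28 on the other control arrays). Nicotine against control in that fit thus rests mostly on these 2 arrays. Why the weights differ was not tested. With no low-value filter, which adds 22 probe sets near the lower end of the scale, the joint exposure against control median was -0.19. Leaving out each array in turn gave 0 to 1 members called for paraquat averaged and 0 to 2 for joint exposure against control, and 0 for the other contrasts. The medians then ran from -0.38 to -0.23 for paraquat averaged, -0.35 to -0.14 for joint exposure against nicotine, -0.51 to -0.23 for paraquat against control, -0.13 to -0.01 for nicotine averaged, -0.11 to 0.06 for joint exposure against paraquat, -0.25 to -0.05 for nicotine against control, -0.45 to -0.24 for joint exposure against control and -0.01 to 0.27 for the interaction. Centring each array moved the median of all tested probe sets by -0.11 for paraquat against control, where the member median became -0.49 against -0.10 for all tested. Under centring unc-13, Csp and 1639174_at of Sh also lay below 0 for paraquat averaged. With the replicate number as a replicate block, 0 members were called in any contrast and the paraquat averaged median was -0.27. Same-numbered arrays had deviations from their group means correlating at -0.07 to 0.50 over 15 pairs, 9 of them above 0.1. Of 11 arrays, 9 correlated best with their own number. The deviations of the 2 paraquat arrays are mirror images by construction, so these pairs and counts are not separate observations. The fit on only the groups compared gives no value for the averaged contrasts and the interaction, which use all groups. For members near log2 4 (brp, slo, 1639174_at of Sh) low signal limits what can be seen.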
